A study of Mus musculus with 16 samples.

Results

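Cycling neutrophil precursors of the bone marrow (BM), here called cycling preNeu, were described in mice without a tumor, in tumor-bearing mice given vehicle and in tumor-bearing mice given IACS-70654. They were chosen cell by cell from the UMIs (unique molecular identifiers, counted RNA molecules) of marker genes. Kept cells had over 200 but under 6000 genes, and mitochondrial UMIs made up no more than 10%. Such a cell was a member when Mki67 and Top2a, which mark cells in cycle, summed to at least 2 UMIs and Camp, Ngp and Fcnb, genes of the granule program, to at least 20. Members also held no UMI of the B cell genes Cd79a and Cd79b, at most 1 UMI of the monocyte genes F13a1 and Ms4a6c, and under 1% of their UMIs from Elane, Mpo and Prtn3, which encode azurophil granule enzymes. This rule found 2966 members among 31191 kept cells of 6 CD45+ libraries, within 73176 kept cells of all 16 libraries of the series. No cell of the 6 c-Kit+ BM libraries met the same rule.

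The mice were female BALB/c with no engineered allele in any group. WT animals, which the labels call controls, carried no tumor and were untreated. No transplantation or dosing is described for them. The comparison of vehicle with WT therefore cannot tell the tumor apart from the transplantation and the oral vehicle. The other animals were transplanted at 7 to 8 weeks of age with 2208L, a transplantable Trp53-null mammary tumor, and received either vehicle (methylcellulose) or IACS-70654, an oral inhibitor of the bromodomains of the acetyltransferases CBP and P300, on a schedule of 3 days on and 2 days off. The labels give 7 days of treatment, whereas the study's text gives a shorter time for the marrow samples. Each sample pooled cells of 3 mice, each group had 2 libraries, and it is not stated whether the libraries of a group came from separate pools, so the p-values measure only the spread between libraries, which may be technical. Vehicle and IACS-70654 were compared within tumor-bearing mice only, and the vehicle libraries serve both main comparisons.

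Neutrophils arise in the marrow from myeloblasts through promyelocytes and myelocytes, and granule proteins are made in waves during this course. Azurophil proteins such as elastase and myeloperoxidase come first, in the stage often called proNeu. Secondary granule proteins such as lactoferrin, lipocalin-2, cathelicidin and neutrophilic granule protein follow in preNeu, the committed precursor that still divides, and gelatinase granule proteins and chemokine receptors of the circulating cell come last, after division has stopped.

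The label was set beside genes outside the rule. Genes of preNeu outside the rule (Cebpe, Ltf, Lcn2, Chil3 and others) summed to between 21310 and 28090 UMIs per 1000000 (CPM, on library totals scaled by the trimmed mean of M values, TMM) in the 6 libraries. Genes of mature neutrophils summed to between 1192 and 2065 CPM and genes of proNeu outside the rule to between 361 and 643 CPM. A longer list of late granule and mature cell genes, which holds S100a8 and S100a9, summed to between 239300 and 330700 CPM. Sums of unlike lists follow the levels of the genes they hold, and the rule itself capped azurophil transcripts. They describe the members and are no test of the label. Cebpe, the transcription factor of the secondary granule program, lay between 575 and 671 CPM.

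Members were deeply sequenced cells. Their median depth ran from 10779 to 13310 UMIs per cell against 4113 to 6596.5 UMIs over all kept cells of the same libraries, and members of a library summed to between 4465484 and 9454364 UMIs. No barcode was shared between these libraries. The doublet caller marked between 0.0164% and 1.92% of kept cells and under 0.5% in 5 of 6 libraries. Whether it missed doublets was not tested, so its calls cannot show that doublets were absent. Apart from the caller, the samples were demultiplexed by their tags, and the rule left out cells with B cell or more monocyte UMIs. Between the libraries of a group, counts differed by more than sampling noise, with a chi-square per gene of 1.72 in WT, 1.31 in vehicle and 1.60 in IACS-70654 libraries.

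The values that chose the members are given as a description. Mki67 stood at 538 and 519 CPM in WT, 618 and 657 CPM in vehicle and 603 and 569 CPM in IACS-70654 members, and Top2a between 492 and 558 CPM in all 6 libraries. Fcnb, which encodes the lectin ficolin B, read 853 and 919 CPM in WT, 879 and 836 CPM in vehicle and 341 and 364 CPM with IACS-70654. Ngp read 32511 and 33570 CPM in WT, 35224 and 36237 CPM in vehicle and 20130 and 20396 CPM with IACS-70654. Camp lay lower with IACS-70654 too, at 39837 and 40102 CPM against 52745 and 54052 CPM in vehicle. Elane went the other way, with 639 and 711 CPM under IACS-70654 against 314 and 268 CPM in vehicle, below the threshold set for members in each cell. Just inside the cycling threshold, at 2 UMIs of Mki67 and Top2a, were 73 WT, 133 vehicle and 108 IACS-70654 cells, and just outside it, at 1 UMI, were 313, 533 and 554 cells. Few cells lay near the granule threshold, with 8, 9 and 12 cells at 20 to 39 UMIs of Camp, Ngp and Fcnb. In the azurophil share, 43, 72 and 92 cells were between 0.5% and under 1%, and 23, 51 and 68 cells between 1% and under 1.5%. The limit on Cd79a and Cd79b left out 100 WT, 84 vehicle and 76 IACS-70654 cells that met the rest of the rule. The effect of this unequal loss on the shares of members was not tested.

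The first question was how many such cells each marrow held. Members made up 9.50% and 8.72% of kept CD45+ cells in the WT libraries (435 and 383 cells), 11.5% and 12.04% in vehicle (587 and 733 cells) and 7.36% and 7.64% with IACS-70654 (358 and 470 cells). The groups did not overlap in either direction. The mean share was 2.65 percentage points higher in vehicle than in WT. With IACS-70654 it fell by 4.26 percentage points from vehicle, a log2 ratio of -0.65. The exact two-sided permutation test gave p = 0.333 for both, the smallest value that 2 libraries against 2 allow. The exact 95% binomial intervals, which cover counting error only, ran from 10.6% to 12.9% over the vehicle libraries and from 6.64% to 8.33% over the IACS-70654 libraries. A share of sorted cells cannot tell fewer members from more of the other cells.

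Cells that met the rule except for holding 1% or more of their UMIs from Elane, Mpo and Prtn3, here called azurophil-high precursors, were counted apart. Their share of kept cells was 0.895% and 1.16% in WT, 1.72% and 1.35% in vehicle and 2.67% and 2.65% with IACS-70654. Counted together with the members, the cycling cells of the granule program reached 10.4% and 9.88% in WT, 13.204% and 13.4% in vehicle and 10.0% and 10.3% with IACS-70654. For both classes together the mean share fell by 3.14 percentage points from vehicle to IACS-70654, and IACS-70654 and WT libraries overlapped in this sum. As a share of granule-program cells alone, members were 24.5% and 24.0% in WT, 26.3% and 26.6% in vehicle and 17.8% and 18.4% with IACS-70654.

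**Figure D1:**
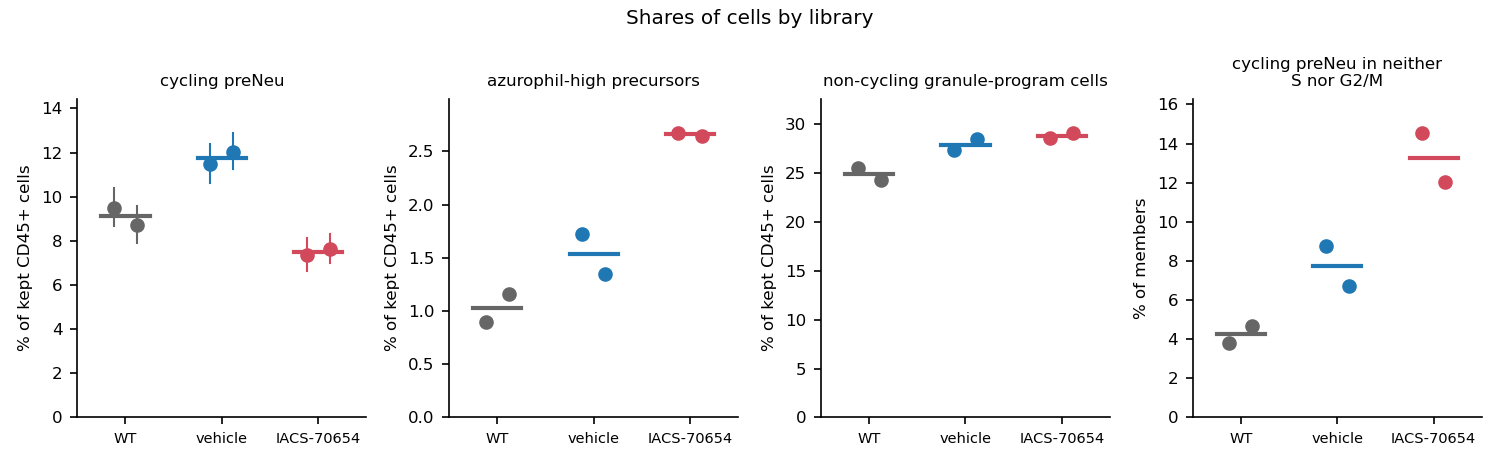
Shares by library for WT, vehicle and IACS-70654, with 1 point per library and a bar at the group mean. The left panel gives cycling preNeu as a percent of kept CD45+ cells with exact 95% binomial intervals, the middle panels the azurophil-high precursors and the non-cycling cells of the granule program on the same denominator, and the right panel the percent of members assigned to neither S nor G2/M phase. Cycling preNeu are lowest with IACS-70654 (7.36% and 7.64%) while azurophil-high precursors are highest there (2.67% and 2.65%).

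Within the members, the share of cells low in azurophil transcripts shrank with IACS-70654. Members with no UMI of Elane, Mpo or Prtn3 were 14.5% and 13.3% of members in WT, 9.88% and 10.2% in vehicle and 4.47% and 3.83% with IACS-70654. Members with 0.1% to under 1% of their UMIs from these genes were 12.4% and 12.8% in WT, 18.9% and 18.3% in vehicle and 32.4% and 42.8% with IACS-70654. Both measures are of genes that the rule used and are given without a test. The members of the IACS-70654 libraries thus lay nearer to the azurophil end of the gate, a difference in makeup that moves with each comparison of the summed UMIs.

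Each member was thinned to 5000 UMIs and scored on 43 genes of S phase and 52 of G2/M to give its cell cycle phase. Thinning left out between 21 and 40 members per library. Members in G2/M were 73.9% and 72.9% in WT, 67.3% and 71.5% in vehicle and 68.0% and 69.5% with IACS-70654, so the last 2 groups overlapped (exact permutation p = 1). Members in S were 22.3% and 22.4%, 23.9% and 21.7%, and 17.5% and 18.5% in the same order, with IACS-70654 below both other groups. Members in neither phase were 3.80% and 4.70% in WT, 8.75% and 6.72% in vehicle and 14.5% and 12.03% with IACS-70654. A difference of 2 libraries against 2 cannot pass an exact test at 0.05. These phases are ranges of a score, and between 5.57% and 11.4% of members lay within 0.05 of a boundary. The score left out Mki67 and Top2a, but they chose the members, so the share in G2/M depends on the rule. At 4 or more UMIs of both together it was 80.7% and 79.0% in WT and 74.6% and 77.6% in vehicle. With IACS-70654 it was 80.8% and 77.5%. The overlap of vehicle and IACS-70654 thus does not show that G2/M was unchanged.

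Gene expression was then compared on UMIs summed over the members of each library, with edgeR's quasi-likelihood test and Benjamini-Hochberg adjustment over 10507 genes. Calls needed an adjusted p below 0.01 together with a change of more than 0.5 on the log2 scale, in either direction. From WT to vehicle, 477 genes were called (4.54% of those tested), 281 higher (2.67%) and 196 lower (1.87%). From vehicle to IACS-70654, 920 genes were called (8.76%), 469 higher (4.46%) and 451 lower (4.29%), and from WT to IACS-70654 902 genes (8.58%). The scaling mattered to these counts. Scaled by library totals alone, the median log2 change of all genes moved to -0.19 from WT to vehicle and to 0.22 from vehicle to IACS-70654, and the calls became 150 higher and 594 lower in the first comparison and 1263 higher and 234 lower in the second. DESeq2 called 140 higher and 28 lower in the first comparison and 127 higher and 228 lower in the second. Changes are given below on the TMM scale, on which the medians of all genes were -0.01 and 0.00.

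**Figure D2:**
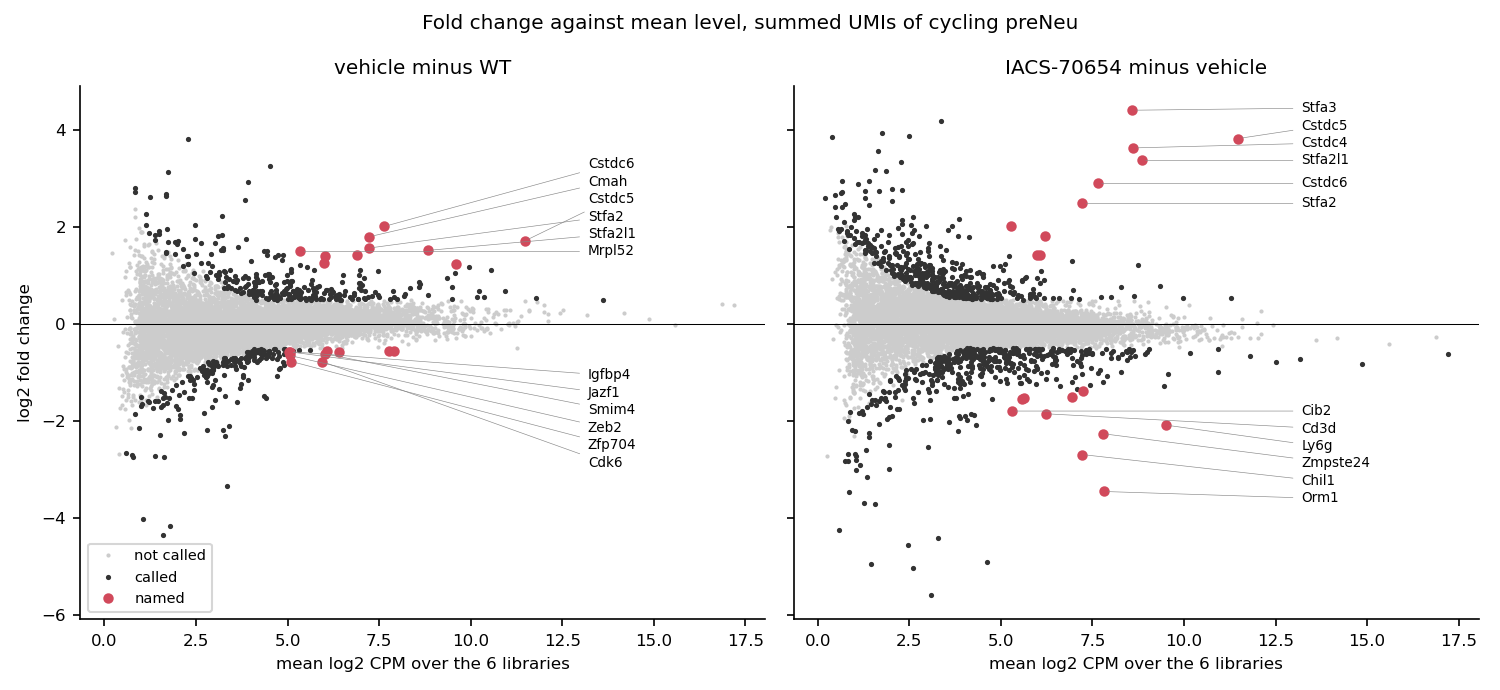
Log2 fold change (y axis) against mean log2 CPM over the 6 libraries (x axis) for each tested gene in summed cycling preNeu, for vehicle minus WT (left) and IACS-70654 minus vehicle (right). Grey points were not called, black points were called, and red points are the genes named by rule, with 6 labelled in each direction. Among the red points of the right panel, the stefin genes Stfa3 (log2 change 4.40) and Cstdc5 (3.82) are highest and Orm1 (-3.45) and Chil1 (-2.69) lowest.

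Stefins are intracellular inhibitors of cysteine cathepsins. Among the genes named by rule, all at a mean log2 CPM of at least 5, they rose most with IACS-70654. In mice many of their genes lie side by side on chromosome 16. Of the 11 stefin and cystatin genes tested, 9 rose and 1 fell from vehicle to IACS-70654, with a median log2 change of 2.90. From WT to vehicle 7 rose and none fell, with a median of 0.83, and 4 rose in DESeq2. At these lower levels the share of members with a UMI was close to that of B cells for Stfa3, as given below. The starts of these genes are shown because the members of the cluster moved together. Each sequence runs from 250 bases before to 50 bases after the start of the gene on its coding strand (RefSeq, GRCm38.p6, the build the labels name as mm10). All 7 stefin genes looked up by symbol had an entry, and 4 are printed. Cstdc6 was not among the 7 looked up. Capitals mark 1 of the runs shared by all 4 sequences, 13 bases that all 7 held and that occurred in 9 of 32851 starts in the table on either strand.
Stfa3, chr16:36455343-36455642, minus strand: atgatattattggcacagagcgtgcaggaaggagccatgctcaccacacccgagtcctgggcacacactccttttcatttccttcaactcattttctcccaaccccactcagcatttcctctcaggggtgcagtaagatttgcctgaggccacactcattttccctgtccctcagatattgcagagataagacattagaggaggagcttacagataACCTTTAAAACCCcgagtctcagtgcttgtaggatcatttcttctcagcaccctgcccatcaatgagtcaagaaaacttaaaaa
Cstdc5, chr16:36367521-36367820, minus strand: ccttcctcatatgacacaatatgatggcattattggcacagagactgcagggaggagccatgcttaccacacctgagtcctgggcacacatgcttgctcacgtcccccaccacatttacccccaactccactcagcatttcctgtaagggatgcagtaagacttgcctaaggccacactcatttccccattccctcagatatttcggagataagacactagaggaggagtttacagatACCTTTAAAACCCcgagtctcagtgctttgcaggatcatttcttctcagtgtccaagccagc
Cstdc4, chr16:36183962-36184261, plus strand: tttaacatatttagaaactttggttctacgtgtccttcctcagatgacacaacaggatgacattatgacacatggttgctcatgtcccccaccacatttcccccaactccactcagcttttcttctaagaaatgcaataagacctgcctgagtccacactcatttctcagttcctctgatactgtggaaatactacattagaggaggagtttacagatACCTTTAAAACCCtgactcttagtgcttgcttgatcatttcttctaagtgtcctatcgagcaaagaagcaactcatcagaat
Stfa2l1, chr16:36156561-36156860, plus strand: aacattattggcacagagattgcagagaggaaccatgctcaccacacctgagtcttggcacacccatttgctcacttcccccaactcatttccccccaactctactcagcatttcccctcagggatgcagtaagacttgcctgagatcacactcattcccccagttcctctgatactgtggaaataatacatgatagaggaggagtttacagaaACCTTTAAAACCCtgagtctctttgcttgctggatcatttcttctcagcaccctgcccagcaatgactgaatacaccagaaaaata

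These starts are alike well beyond the capitals. In global alignments of the 300 bases, between 72.3% and 82.7% were identical for pairs of the 4 printed genes, with Stfa3 and Stfa2l1 at the upper end. The letters GAGGAA, the core bound by PU.1, occurred on either strand in 6 of 7 stefin starts and in 28.3% of all starts. The C/EBP palindrome TTGCNNAA occurred in 3 of 7 and in 10.8% of all, and the STAT motif TTCNNNGAA in 1 of 7 and in 8.3% of all. These are matches of letters and say nothing of binding. These genes are paralogs, and whether reads of 1 were counted for another was not tested, so the values of single stefins are uncertain.

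The summed level of the 13 genes in the list was 714 and 827 CPM in WT members, 1512 and 1339 CPM in vehicle and 11630 and 13560 CPM with IACS-70654. The groups stood far apart. Stfa3 was counted at 24.5 and 36.4 CPM in WT, 59.2 and 44.3 CPM in vehicle and 1070 and 1092 CPM with IACS-70654, a log2 change of 4.40 ± 0.07 (SE, edgeR adjusted p = 1.93e-45) from vehicle and of 0.76 ± 0.12 from WT to vehicle. Cstdc5 read 157 and 183 CPM in WT, 588 and 526 CPM in vehicle and 7184 and 8525 CPM with IACS-70654, a log2 change of 3.82 ± 0.06 from vehicle and of 1.71 ± 0.07 from WT to vehicle (edgeR adjusted p = 1.47e-45 and 3.63e-26). Cstdc4 rose by 3.63 ± 0.10, Stfa2l1 by 3.37 ± 0.07, Cstdc6 by 2.90 ± 0.07 and Stfa2 by 2.48 ± 0.08 on the log2 scale with IACS-70654, and all 6 stayed called in each alternative tried. Cstb, the stefin found in most cell types, rose by 0.64 ± 0.09. Cst3, a secreted cystatin, was at 433 and 438 CPM in vehicle and 440 and 463 CPM with IACS-70654 and was not called. Cst7, an inhibitor of lysosomal cathepsins, was lower with IACS-70654, at 3.395 and 2.41 CPM against 7.01 and 5.45 CPM in vehicle, a call lost in 8 alternatives. From WT to vehicle, the calls of Stfa3 and Cstdc4 were lost without WT replicate 1 (log2 change 0.49) and without vehicle replicate 1 (0.50), respectively, and for both genes in DESeq2 and among S phase members alone.

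The rise was seen in more cells as well as in the sum. After thinning to 5000 UMIs, Cstdc5 had a UMI in 40.5% and 37.0% of members in WT, 55.5% and 50.1% in vehicle and 88.1% and 93.1% with IACS-70654. B cells, which should lack it, held it in 43.5% and 42.5%, 41.6% and 52.1%, and 50% and 43.5% of cells at median depths of 3283 to 4778 UMIs. Members were below the B cells of their library in both WT libraries and in vehicle replicate 2, and above them in vehicle replicate 1 and in both IACS-70654 libraries. The B cells were not thinned and were shallower than the members. Stfa3 had a UMI in 59.6% and 58.4% of IACS-70654 members against 21.1% and 30.4% of B cells there, and in 12.9% to 18.2% of WT and vehicle members against 14.8% to 16.8% of B cells.

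**Figure D3:**
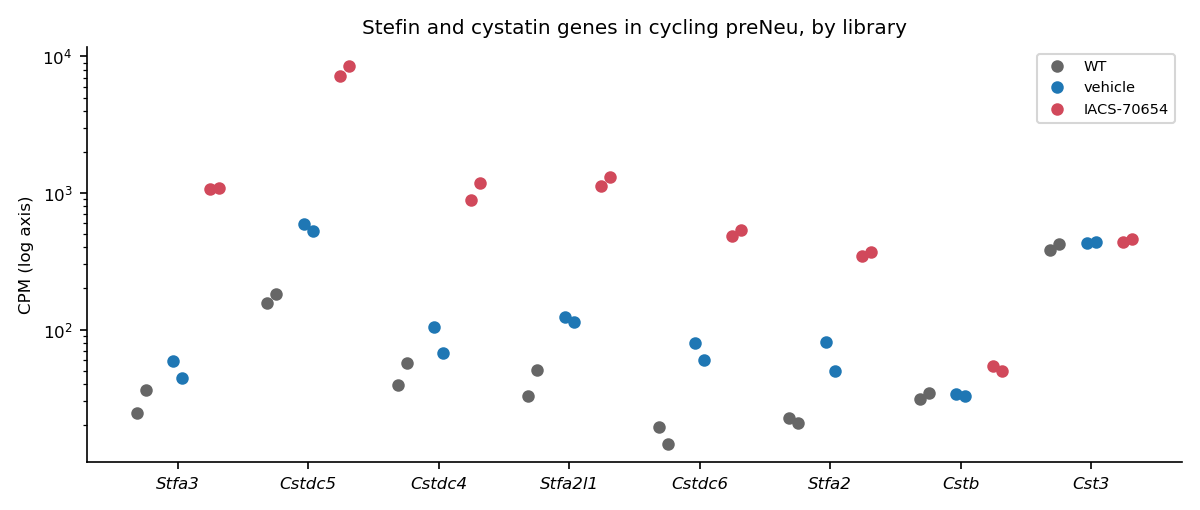
CPM in summed cycling preNeu (log axis) for 8 stefin and cystatin genes, with 1 point per library. With IACS-70654, Stfa3 reaches 1070 and 1092 CPM and Cstdc5 7184 and 8525 CPM, whereas Cst3 lies between 382 and 463 CPM in all 6 libraries.

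Secondary granule genes are the mark of this stage. Of 23 tested outside the rule, 6 rose and none fell from WT to vehicle (median 0.39), and 2 rose and 9 fell from vehicle to IACS-70654 (median -0.34). Scaled by library totals, 2 rose and 1 fell in the first comparison (median 0.22) and 2 rose and 4 fell in the second (median -0.12), so the signs of the medians held and the counts did not. Orm1, which encodes the acute phase protein orosomucoid, read 264 and 264 CPM in WT, 350 and 375 CPM in vehicle and 37.5 and 29.8 CPM with IACS-70654, a log2 change of -3.45 ± 0.08 (edgeR adjusted p = 6.60e-40). Chil1, a chitinase-like lectin stored in secondary granules, read 192 and 176 CPM, 224 and 218 CPM, and 37.5 and 31.6 CPM in the same order (-2.69 ± 0.08, edgeR adjusted p = 2.00e-34). In both genes the IACS-70654 libraries were also far below WT.

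Ly6g, the surface antigen by which mouse neutrophils are sorted, read 749 and 810 CPM in WT, 1078 and 1143 CPM in vehicle and 279 and 247 CPM with IACS-70654. It rose by 0.51 ± 0.05 from WT to vehicle, a call lost in 9 alternatives, and fell by 2.08 ± 0.06 on the log2 scale with IACS-70654 (edgeR adjusted p = 1.14e-35). Ltf, encoding lactoferrin, read 6014 and 5956 CPM in WT, 7317 and 7385 CPM in vehicle and 4405 and 4164 CPM with IACS-70654 (-0.78 ± 0.05). Wfdc21 (-0.66), Olfm4 (-0.62), Mgst1 (-0.57), Lrg1 (-0.54) and Itgb2l (-0.53) also fell, each with a change that was no longer called when scaled by library totals. Lcn2, encoding lipocalin-2, was at 14667 and 15081 CPM in vehicle against 10108 and 10889 CPM in WT and was not called with IACS-70654 (-0.32 ± 0.05). Hp (0.56), Anxa1 (0.54), Lrg1 (0.86) and Ceacam10 (1.42) rose from WT to vehicle. By library totals the calls of Lcn2, Hp, Anxa1 and Ly6g were lost. Ceacam10, at 12.7 and 13.7 CPM in WT, was at 35.2 and 35.6 CPM in vehicle and 35.7 and 33.9 CPM with IACS-70654. Chil3 and B4galt6 were the 2 that rose with IACS-70654. Chil3, a chitinase-like protein also called Ym1, read 2640 and 2790 CPM in WT, 1914 and 1940 CPM in vehicle and 2876 and 2714 CPM with IACS-70654 (0.54 ± 0.05), a call lost without IACS-70654 replicate 1 (0.49). Of the chitinase family, the active enzyme Chit1 fell from 14.02 and 9.16 CPM in vehicle to 0.399 and 0.603 CPM with IACS-70654.

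Of 26 genes of late granules and mature cells, 7 rose and none fell from WT to vehicle (median 0.40), and 1 rose and 5 fell from vehicle to IACS-70654 (median -0.24). Scaled by library totals, 5 rose in the first comparison (median 0.23) and 3 rose and 3 fell in the second (median -0.02). On the TMM scale, Stfa2l1, a stefin already counted above, was among the 7 and was the only 1 that rose with IACS-70654. Cxcr2, the chemokine receptor by which neutrophils leave the marrow, read 35.2 and 35.7 CPM in WT, 82.2 and 86.6 CPM in vehicle and 61.5 and 61.0 CPM with IACS-70654 (1.25 ± 0.09 from WT to vehicle, edgeR adjusted p = 8.39e-17). Among S phase members alone, the changes of Padi4 (-0.155) and Retnlg (-0.00288) from WT to vehicle were not called. Mmp9, encoding gelatinase B, rose by 0.70 and Retnlg by 0.69, and Csf2rb, the shared receptor chain of GM-CSF and IL-3, by 0.86. With IACS-70654, the formyl peptide receptor gene Fpr2 fell from 241 and 221 CPM to 102 and 92.2 CPM (-1.25 ± 0.06) and Padi4, the enzyme that citrullinates histones, from 86.2 and 84.7 CPM to 35.1 and 36.9 CPM (-1.24 ± 0.08). S100a9 read 137780 and 148350 CPM in WT, 187410 and 186750 CPM in vehicle and 119710 and 123530 CPM with IACS-70654 (-0.62 ± 0.05, not called by library totals), whereas S100a8 was not called in either comparison (0.41 and -0.26).

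**Figure D4:**
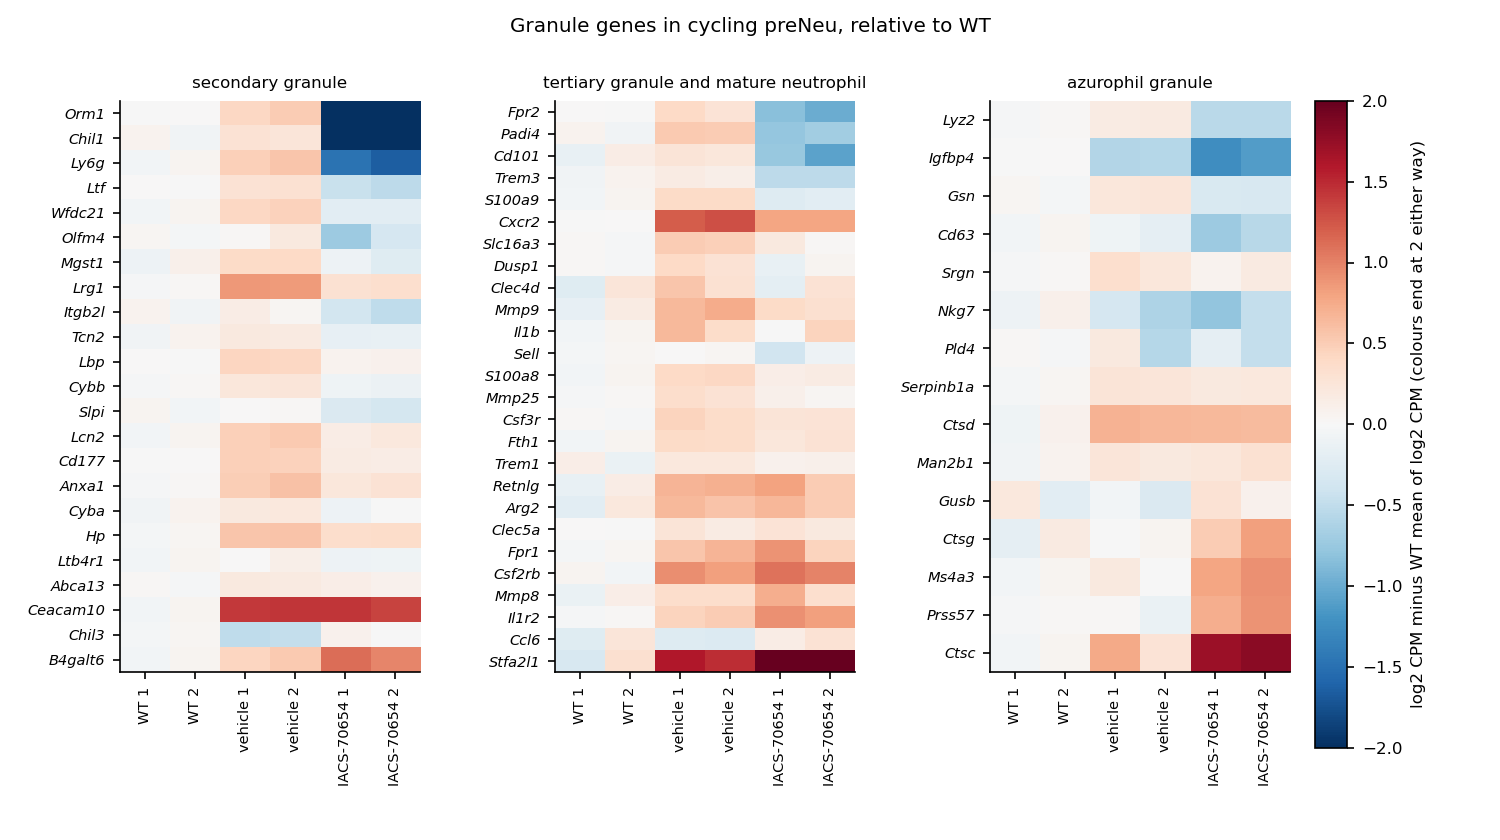
Log2 CPM of each tested granule gene in the 6 libraries relative to the WT mean, for secondary granule genes (left), late granule and mature cell genes (middle) and azurophil granule genes (right), sorted by the difference between IACS-70654 and vehicle. Red is above and blue below WT, with colors ending at 2 in either direction. Orm1, Chil1 and Ly6g are the deepest blue rows under IACS-70654. Ceacam10 and the stefin gene Stfa2l1 are red in vehicle and IACS-70654, and Ctsc, Prss57, Ms4a3 and Ctsg are red in the IACS-70654 libraries.

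Genes of the azurophil list outside the rule split on the TMM scale. This list is not limited to enzymes of that granule. Of 15 tested, 1 rose (Ctsd, 0.68) and 1 fell (Igfbp4, -0.57) from WT to vehicle, and 4 rose and 4 fell from vehicle to IACS-70654. The medians, 0.09 and -0.05, changed sign when scaled by library totals (-0.08 and 0.17), where 1 rose and 2 fell in the first comparison and 5 rose and none fell in the second. Ms4a3, a gene of granulocyte and monocyte progenitors, read 233 and 251 CPM in WT, 278 and 239 CPM in vehicle and 418 and 456 CPM with IACS-70654 (0.76 ± 0.06). The serine protease genes Ctsg (0.66 ± 0.10) and Prss57 (0.89 ± 0.09) and Ctsc, whose product activates these proteases (1.26 ± 0.16), rose as well. Lyz2, encoding lysozyme, fell from 11047 and 11186 CPM in vehicle to 6790 and 6768 CPM with IACS-70654 (-0.71 ± 0.05), and Gsn (-0.55), Cd63 (-0.51) and Igfbp4 (-0.60) fell too. None of these 4 falls was called by library totals.

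The makeup of the members moved with these genes, so levels were also set side by side among members with a like share of Elane, Mpo and Prtn3. Among members with 0.1% to under 1% of their UMIs from these enzymes, Ms4a3 read 613 and 680 CPM in WT, 633 and 567 CPM in vehicle and 736 and 723 CPM with IACS-70654. The IACS-70654 libraries were above vehicle in this class, by less than over all members, and above vehicle among members with above 0 to under 0.1% (232 and 228 CPM against 182 and 162 CPM). Among members without azurophil UMIs they overlapped with vehicle, at 113 and 120 CPM against 129 and 75.2 CPM. Ctsg among members with 0.1% to under 1% was at 58.0 and 65.3 CPM in vehicle and 81.1 and 94.4 CPM with IACS-70654, and WT, at 71.3 and 97.5 CPM, overlapped with IACS-70654. In the other classes Ctsg was not higher with IACS-70654 than in vehicle, at 22.96 and 21.2 CPM against 23.6 and 23.7 CPM in the middle class and at 18.9 and 15.7 CPM against 25.8 and 27.8 CPM without azurophil UMIs, the former from 3 UMIs in each library. Orm1 stayed low in each class, with 31.4 and 26.2 CPM under IACS-70654 against 488 and 356 CPM in vehicle among members without azurophil UMIs, and 32.9 and 30.6 CPM against 321 and 354 CPM among those with 0.1% to under 1%. Ly6g among members with above 0 to under 0.1% was at 378 and 345 CPM with IACS-70654, 1294 and 1323 CPM in vehicle and 855 and 867 CPM in WT. Without azurophil UMIs Ly6g was at 560 and 837 CPM with IACS-70654 and 1412 and 1699 CPM in vehicle. At 0.1% to under 1% it was at 99.6 and 105 CPM with IACS-70654 and 278 and 324 CPM in vehicle. Cstdc5 was highest with IACS-70654 in all 3 classes, from 6108 to 10030 CPM against 337 to 680 CPM in vehicle. Ltf in the middle class was at 6082 and 6054 CPM with IACS-70654 and 8459 and 8403 CPM in vehicle. Only 16 and 18 IACS-70654 members held no azurophil UMI. These values are a description without a test.

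**Figure D5:**
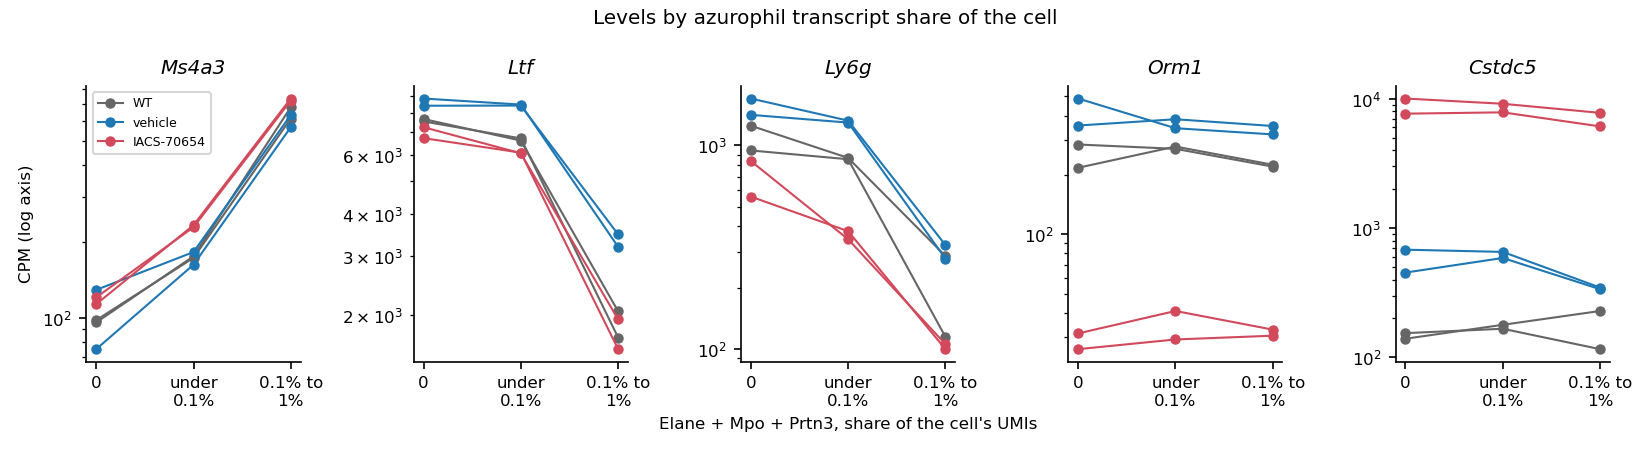
CPM (log axis) in members grouped by the share of their UMIs from Elane, Mpo and Prtn3 (x axis), with 1 line per library. In the class from 0.1% to under 1%, Ms4a3 lies between 567 and 736 CPM in the 6 libraries, whereas in Orm1 both IACS-70654 lines reach at most 40.9 CPM in any class and in Cstdc5 both lie at 6108 CPM or above.

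Among genes with a mean log2 CPM of at least 5, the 10 with the largest increase from WT to vehicle included, beside the stefins, Cmah, Mrpl52, Wfdc17, Pim1, Cxcr2 and Ifitm3. Cmah, the enzyme that hydroxylates sialic acid, read 70.7 and 75.6 CPM in WT, 254 and 254 CPM in vehicle and 101 and 95.2 CPM with IACS-70654. It rose by 1.80 ± 0.07 from WT to vehicle and fell by 1.38 ± 0.06 on the log2 scale with IACS-70654, which left it between the 2 other groups. Pim1, a kinase induced by cytokine receptors through STAT factors, rose by 1.39 ± 0.09, from 31.0 and 30.6 CPM in WT to 81.4 and 80.8 CPM in vehicle, and stood at 71.9 and 75.3 CPM with IACS-70654. Mrpl52, a protein of the mitochondrial ribosome, rose by 1.49 ± 0.12 and Wfdc17, a small secreted protein of the whey acidic family, by 1.41 ± 0.08.

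The 10 largest decreases from WT to vehicle above the same level were Cdk6, Zfp704, Zeb2, Smim4, Jazf1, Igfbp4, Gpr141, Alcam, Astn2 and Fmnl2, from -0.78 to -0.56. Cdk6, the cyclin D-dependent kinase, read 75.6 and 81.1 CPM in WT, 42.4 and 48.5 CPM in vehicle and 60.7 and 71.3 CPM with IACS-70654 (-0.78 ± 0.09 and 0.54 ± 0.09), the second change a call lost in 5 alternatives. Gpr141, an orphan receptor, and the formin gene Fmnl2 went down in both steps: Fmnl2 was at 365 and 362 CPM in WT, 239 and 254 CPM in vehicle and 121 and 114 CPM with IACS-70654. Zeb2 (-0.65 ± 0.12), a repressor of the zinc finger homeobox family, lost its call in 7 alternatives.

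With IACS-70654, the 4 genes of the 10 largest increases at a mean log2 CPM of at least 5 that were no stefins were Trps1, Vrk2, Astn2 and Emb. Trps1, a GATA-type repressor, read 16.9 and 17.5 CPM in WT, 19.1 and 20.2 CPM in vehicle and 89.3 and 71.3 CPM with IACS-70654 (2.01 ± 0.10). The kinase gene Vrk2 rose from 43.4 and 38.4 CPM to 153 and 134 CPM (1.81 ± 0.08). Emb, encoding embigin, a partner of monocarboxylate transporters, rose from 45.7 and 45.1 CPM to 129 and 114 CPM (1.41 ± 0.08), with WT at 19.5 and 19.1 CPM.

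Among the 10 largest decreases above that level, beside Orm1, Chil1, Ly6g and Cmah, were Zmpste24, Cd3d, Cib2, Tnnt1, Tnfsf13b and Lilr4b. Zmpste24, the protease that matures lamin A, read 284 and 276 CPM in WT, 302 and 316 CPM in vehicle and 64.3 and 64.8 CPM with IACS-70654 (-2.26 ± 0.06, edgeR adjusted p = 1.64e-34). Tnfsf13b, encoding the B cell survival factor BAFF, was at 78.2 and 76.7 CPM in WT, 52.9 and 53.9 CPM in vehicle and 18.2 and 18.8 CPM with IACS-70654 (-1.53 ± 0.11). Lilr4b, an inhibitory receptor of myeloid cells, was at 104 and 103 CPM in WT, 180 and 191 CPM in vehicle and 68.7 and 62.7 CPM with IACS-70654. Cd3d, which encodes a chain of the T cell receptor complex, fell from 102 and 105 CPM to 30.6 and 27.3 CPM (-1.85 ± 0.09). Its partners were nearly absent, Cd3e at 0 to 0.995 CPM and Cd3g at 0 to 2.79 CPM over the 6 libraries, and Cd8a had no UMI. All 20 genes named for this comparison stayed called with the same sign in each alternative run.

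Of 33 interferon response genes tested, 11 rose and none fell from WT to vehicle (median 0.59), and 7 rose and 3 fell from vehicle to IACS-70654 (median 0.26). Library totals gave 9 and none, and 10 and 3, and DESeq2 8 and none, and 2 and 2. With each library left out, the medians ran from 0.263 to 0.649 and from 0.175 to 0.372. The movers from WT to vehicle were led in level by Ifitm genes, membrane proteins that restrict viral entry, and by Slfn genes. Ifitm3 read 399 and 446 CPM in WT, 1000 and 994 CPM in vehicle and 853 and 922 CPM with IACS-70654 (1.24 ± 0.05 from WT to vehicle). Ifitm1 rose in both steps, from 52.1 and 56.5 CPM to 86.3 and 94.1 CPM and then to 225 and 222 CPM (0.74 ± 0.08 and 1.30 ± 0.06). Slfn4, at 106 and 105 CPM in WT, rose to 208 and 200 CPM in vehicle and fell to 92.7 and 70.8 CPM with IACS-70654 (0.95 ± 0.07 and -1.34 ± 0.07), and Slfn1 took the same course (1.21 and -0.99), though among S phase members alone its change from WT to vehicle was -0.10. Oas2, Oas3 and Ifi27l2a, further targets of type I interferon, were called higher from WT to vehicle (0.64, 0.66 and 0.69), with the call of Oas2 lost in 14 of the alternatives, and Oas2, Oas1a, Stat2 and Irf9 were called higher with IACS-70654 (0.69, 0.68, 0.55 and 0.54). Other targets were low and not called, with Isg15 at 3.33 to 5.99 CPM, Ifit1 at 1.31 to 3.99 CPM and Irf7 at 4.38 to 10.2 CPM over the 6 libraries.

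Of 33 transcription factors and cofactors of granulocyte and monocyte fate, 3 rose (Junb, Mxd1 and Bcl6, the last at -0.12 among S phase members) and 2 fell (Gfi1 and Meis1) from WT to vehicle, and Rara rose and Junb fell with IACS-70654. Scaled by library totals, 6 rose and none fell with IACS-70654, and the fall of Junb was not called. Over all genes tested, 4.54% were called from WT to vehicle and 8.76% from vehicle to IACS-70654 on the TMM scale. The 2 calls with IACS-70654 on that scale therefore say nothing of this list as a whole. Junb, an AP-1 factor, read 77.2 and 80.3 CPM in WT, 171 and 170 CPM in vehicle and 119 and 115 CPM with IACS-70654 (1.11 ± 0.07 and -0.54 ± 0.06). Gfi1, a repressor needed for granulocyte fate, was at 35.6 and 38.4 CPM in WT, 23.5 and 24.2 CPM in vehicle and 29.0 and 33.3 CPM with IACS-70654 (-0.63 ± 0.11 from WT to vehicle, a call lost in DESeq2 and among S phase members). Rara, which encodes a retinoic acid receptor, rose from 6.72 and 6.61 CPM to 13.8 and 12.4 CPM (0.96 ± 0.19), a call lost in DESeq2. Csf3r, the G-CSF receptor, was at 108 and 105 CPM in WT, 144 and 138 CPM in vehicle and 128 and 129 CPM with IACS-70654, and neither change was called. Of 21 receptors, 3 rose and 1 fell from WT to vehicle, and Flt3 and Ifngr1 rose with IACS-70654, where library totals gave 6 higher and none lower. The call of Flt3 rested on IACS-70654 replicate 1 (6.39 CPM against 0.603 CPM in replicate 2) and without it the log2 change was -0.10. Thbs1, the matrix protein thrombospondin-1, was at 9.35 and 13.5 CPM in WT, 0.730 and 1.39 CPM in vehicle and 21.0 and 19.6 CPM with IACS-70654, called in both comparisons (-3.34 ± 0.31 and 4.18 ± 0.26).

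None of 43 S phase and 52 G2/M phase genes was called from WT to vehicle. With IACS-70654, 4 S phase genes fell and no G2/M gene was called, with medians of -0.27 and -0.13. Scaled by library totals, 1 S phase gene fell with a median of -0.05, and the G2/M median turned to 0.09. They included Cdc6, a replication licensing factor (26.9 and 23.9 CPM in vehicle, 10.6 and 16.6 CPM with IACS-70654, -0.85 ± 0.15), Hells (-0.58) and Dtl (-0.52). E2f2, a transcription factor of the cell cycle, fell from 113 and 107 CPM to 62.5 and 66.4 CPM (-0.76 ± 0.07). Cdkn1a, the CDK inhibitor p21, fell from 12.1 and 10.6 CPM to 5.79 and 4.82 CPM (-1.10 ± 0.21), a call lost in DESeq2 and a change of 0.11 among S phase members. Of 26 histone genes, most of them replicative and some replacement variants, 4 rose from WT to vehicle, and 1 rose (H1f0, a replication-independent linker histone) and 4 fell with IACS-70654, against 1 lower, and 1 higher and 1 lower, by library totals.

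Of 29 ribosome biogenesis genes, 5 fell from WT to vehicle (median -0.46) and 3 rose with IACS-70654 (median 0.17), and each of those genes read at most 27.3 CPM. DESeq2 called none in either comparison, and library totals gave 10 lower and 7 higher. Of 34 genes of CBP, P300 and other chromatin enzymes, 1 rose and 1 fell from WT to vehicle and Hdac9 and Dnmt3a rose with IACS-70654. The shares called over all genes were 4.54% and 8.76%, so these calls say nothing of the enzymes as a set. The drug's targets were measured and not called: Crebbp was at 103 and 113 CPM in vehicle and 115 and 121 CPM with IACS-70654, and Ep300 at 102 and 96.5 CPM and 103 and 108 CPM. Of 32 genes of oxidative phosphorylation, none was called in either comparison (by library totals 1 was lower in the first and 3 higher in the second), and of the 7 genes of the NADPH oxidase none either. Of 19 immediate early and heat shock genes, 4 rose and 2 fell from WT to vehicle and 2 rose and 5 fell with IACS-70654, the 5 being Jun, Junb, Jund, Ier2 and Egr1, none of which was called by library totals. Of 17 glycolysis genes, Slc2a3 and Pfkfb4 rose from WT to vehicle, and neither was called by library totals. Of 24 receptors and adhesion genes, 3 rose and 2 fell in the first comparison, and 1 rose and 5 fell in the second (by library totals 2 and 3, and 4 and 3, with the second median turning from -0.11 to 0.11), among them Ly6c1 (-0.80) and Ly6c2 (-0.87), paralogs whose reads may be shared. Of 20 genes of MHC class I and peptide loading, Psmb10 fell from WT to vehicle (none in DESeq2 and 4 by library totals), and of 18 genes of the unfolded protein response Canx and Pdia6 rose with IACS-70654. None of 7 genes in the list of nuclear RNAs and Txnip was called, whereas 2 were higher with IACS-70654 by library totals.

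Markers of other cells were low in the summed members, and some moved with the groups. B cell markers outside the rule summed to between 45.8 and 59.1 CPM, dendritic cell markers to between 71.6 and 90.1 CPM and eosinophil markers to between 10.7 and 27.5 CPM. T and NK markers summed to 188 and 179 CPM in WT, 177 and 165 CPM in vehicle and 78.3 and 86.3 CPM with IACS-70654, most of it Cd3d and Nkg7. Basophil and mast cell markers read 133.5 and 127 CPM, 198 and 201 CPM, and 95.5 and 108 CPM, most of it Hdc, while their defining genes Mcpt8 and Cpa3 were at 2.71 to 3.98 CPM and 0.348 to 9.64 CPM. Stem and progenitor markers read 76.4 and 78.7 CPM in WT against 30.7 and 29.4 CPM in vehicle and 35.6 and 30.7 CPM with IACS-70654. Of 8 tested, 4 fell from WT to vehicle (Kit, Meis1, Mecom and Angpt1). Monocyte and macrophage markers outside the rule read 72.8 and 70.1 CPM in WT against 41.7 to 50.9 CPM in the other libraries, with Vcam1 at 36.2 and 40.4 CPM in WT and 14.3 and 12.5 CPM in vehicle, while C1qa, C1qb and C1qc were at 0 to 2.22 CPM. Erythroid markers were between 20.7 and 27.5 CPM except for 82.3 CPM in WT replicate 2, where Car1 (30.8 CPM) and Car2 (18.0 CPM) were high. The part of these markers in the differences between WT and the other groups was not tested.

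The changes were next compared with those of the 2 neighboring classes of the same libraries, by the interaction of class and group in 1 edgeR fit with each library as a block. Against the 555 azurophil-high precursors, 15 genes differed in their change from WT to vehicle (0.139% of 10821 tested) and 170 in their change from vehicle to IACS-70654 (1.57%). Against the 8553 non-cycling cells of the granule program, which held no UMI of Mki67 and Top2a, 100 genes (0.876% of 11420) and 391 genes (3.42%) differed. Classes differ in depth and number, with median depths of 4607 to 6786 UMIs in non-cycling and 11499 to 17071 UMIs in azurophil-high cells.

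As counted, the stefins did not rise alike. Whether reads were shared between these paralogs was not tested, and Stfa3 was found in vehicle members about as often as in B cells. Stfa3 rose by 4.40 in members and 2.10 in azurophil-high precursors with IACS-70654 on the log2 scale, a difference of 2.26 ± 0.21 (edgeR adjusted p = 1.27e-23), and by 3.60 in non-cycling cells, a difference of 0.83 ± 0.09. Cstdc5 rose by 3.81 in azurophil-high precursors, with a difference of -0.02 ± 0.11 that was not called, and by 2.61 in non-cycling cells, with a difference of 1.23 ± 0.07 (edgeR adjusted p = 6.24e-23). Cstdc4 rose more in members than in both neighbors, by 1.71 ± 0.19 and 1.18 ± 0.11, and so did Stfa2l1, by 1.15 ± 0.21 and 1.06 ± 0.08.

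Summed over all members, Ly6g and Orm1 fell further than in both neighboring classes. The makeup of the members by azurophil share moved too, and its part in these differences was not tested. Ly6g changed by -2.08 in members against -0.61 in azurophil-high precursors and -1.19 in non-cycling cells, differences of -1.51 ± 0.15 and -0.86 ± 0.07 (edgeR adjusted p = 3.91e-22 and 5.91e-16). Orm1 changed by -3.45 against -2.53 and -2.22, differences of -0.95 ± 0.21 and -1.20 ± 0.11. Chil1 changed by -2.69 against -2.06, a difference of -0.66 ± 0.29 that was not called, and against -1.45 in non-cycling cells, a difference of -1.21 ± 0.09. Anxa1, encoding annexin A1, and Olfm4 took opposite signs, at -0.29 and -0.62 in members and 1.49 and 1.07 in azurophil-high precursors (differences -1.82 ± 0.08 and -1.73 ± 0.15). Jun fell by 0.70 in members and rose by 0.99 in non-cycling cells on the log2 scale (difference -1.66 ± 0.09), and Myb, a factor of immature cells, changed by 0.37 against -0.68 (difference 1.08 ± 0.14). From WT to vehicle, Lcn2 rose by 0.50 in members and 1.18 in azurophil-high precursors (difference -0.72 ± 0.08), and Ifitm1 by 0.74 in members and 1.76 in non-cycling cells (difference -1.04 ± 0.10).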

How the data were processed

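RNA of single CD45+ BM cells was measured by 10x 3′ sequencing of CellPlex-tagged samples. The authors made the deposited counts of UMIs per gene and cell with CellRanger multi (7.2.0 in the file headers, mm10 per the labels), without normalization. The 6 CD45+ libraries were grouped by label, and no cell annotation was used. Kept cells had over 200 but under 6000 genes, and mitochondrial UMIs made up no more than 10%. The members, the gene lists and the tests were chosen with earlier results of these data known.

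UMIs were summed over the members of each library and fitted over all 6 libraries with edgeR 4.0.16 (R 4.3.3; filterByExpr, TMM, quasi-likelihood test, Benjamini-Hochberg adjustment). Calls needed an adjusted p below 0.01 together with a change of more than 0.5 on the log2 scale. The SE of a change was its size divided by the square root of F. Recovery was tried on simulated counts, with 200 genes drawn and changed by 1 on the log2 scale. Of those tested, 77.7% were recovered for vehicle against WT (10283 genes) and 79% for IACS-70654 against vehicle (10306 genes), with 0 false calls. The rate of false calls in the measured counts was not tested. Named genes were, per main comparison, the 10 largest changes each way among called genes with a mean log2 CPM of at least 5 and no overlap between groups, without the 12 rule genes, ribosomal protein, mitochondrial, Gm and Rik genes, plus the members of 33 lists of 638 genes.

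Phases and shares of cells with a UMI were taken after thinning each cell to 5000 UMIs. Shares were compared by exact permutation (scipy 1.17.1). Doublets were scored with Scrublet in scanpy 1.11.5. Alternatives were RLE scaling, library totals, no filter, DESeq2 1.42.0, leaving out each library, a replicate block, other thresholds of the rule, depth thinning, doublets left out, S or G2/M members alone and equal member numbers. Promoter sequences came from RefSeq and were aligned with biopython 1.88. Tumor and c-Kit+ libraries entered only the counts of cells.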

Additional observations from a re-analysis of the deposited data

Results flagged for a closer look

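The differences below were picked out because the change of a named gene between groups differed between cycling preNeu and a neighboring class of the same libraries, by the interaction test of edgeR, at the same thresholds. Values are the log2 change in members minus that in the other class. From vehicle to IACS-70654, 10 of 20 named genes differed from azurophil-high precursors (1.57% of all genes tested) and 12 of 20 from non-cycling cells (3.42%). The 20 genes were picked for their large changes in the members, which favors such a difference, so nothing is read from these counts. Against azurophil-high precursors the largest differences were those of Astn2, a membrane protein known from neurons, at -2.49, Stfa3 at 2.26 and Cstdc4 at 1.71. Astn2 rose by 1.42 in members and by 3.87 in azurophil-high precursors. Against non-cycling cells they were those of Cstdc5 at 1.23, Chil1 at -1.21 and Orm1 at -1.2. From WT to vehicle, none of 20 named genes differed from azurophil-high precursors (0.139% of all genes) and 4 of 20 from non-cycling cells (0.876%), the largest being Wfdc17 at -1.1, Zfp704 at 0.958 and Stfa2l1 at 0.809. Wfdc17 rose in both classes, by 1.41 in members and 2.49 in non-cycling cells.

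The number of genes that differed with IACS-70654 was lower whichever vehicle or IACS-70654 library was left out, which leaves 1 library in that group. Without IACS-70654 replicate 1 or 2, the 391 genes that differed from non-cycling cells with IACS-70654 became 190 or 175, and the 170 that differed from azurophil-high precursors became 91 without vehicle replicate 2.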

How the results depend on the processing

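All values in this paragraph are log2 changes, log2 ratios of shares or numbers of called genes. All 20 genes named for IACS-70654 against vehicle kept their direction and call under each alternative, whereas 11 of 20 named for vehicle against WT lost the call among S phase members alone, 3 each in DESeq2 (Igfbp4, Jazf1, Zeb2), without WT replicate 1 (Astn2, Zeb2, Jazf1), among G2/M members alone and with equal member numbers, and 1 each without vehicle replicate 1 (Astn2), at 4 or more UMIs of Mki67 and Top2a, at 50 or more of Camp, Ngp and Fcnb, with libraries matched on the median depth of kept cells and with azurophil-high precursors. The causes of the changes below were not tested. From WT to vehicle, 477 calls became 744 by library totals, 168 in DESeq2, 307 with libraries thinned to an equal median depth over all kept cells, 61 among S phase members and 313 to 506 with each library left out, the lowest without vehicle replicate 2. For IACS-70654 against vehicle, 920 became 1497 by library totals, 355 in DESeq2, 312 among S phase members and 657 to 973 with each library left out. From WT to IACS-70654, 902 became 400 in DESeq2, 260 among S phase members and 726 to 892 with each library left out. S phase members are a small part of all members, which leaves fewer UMIs. The replicate numbers did not pair the libraries (correlations of deviations -0.021, 0.096 and -0.033), and with a replicate block the counts were 505, 948 and 928.

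The interaction counts with each library left out were 7 to 14 and 91 to 156 against azurophil-high precursors and 64 to 96 and 175 to 449 against non-cycling cells, for vehicle against WT and for IACS-70654 against vehicle, and library totals gave 208 for the change from WT to vehicle against non-cycling cells. The log2 ratio of the member share from WT to vehicle was 0.125 over granule-program cells and 0.308 to 0.432 with each library left out. From vehicle to IACS-70654 it was -0.547 over granule-program cells, -0.737 at 4 or more UMIs of Mki67 and Top2a, -0.809 under 0.3% azurophil UMIs, -0.388 with azurophil-high precursors, -0.716 with libraries matched on the median depth of kept cells and -0.684 to -0.615 with each library left out. From WT to IACS-70654 it was -0.423 over granule-program cells, -0.475 under 0.3% azurophil UMIs, 0.00316 with azurophil-high precursors, -0.383 with libraries matched on the median depth of kept cells and -0.341 to -0.217 with each library left out. The granule-program denominator, the sum with azurophil-high precursors and leaving out members above 2 times their library's median depth were chosen after seeing the data. The G2/M share gave 0.0413 from WT to vehicle when a member was assigned by its larger list sum, 0.0566 from vehicle to IACS-70654 at 4 or more UMIs, and -0.0327 without thinning, 0.0313 by the larger sum and -0.0126 at 4 or more UMIs from WT to IACS-70654. With each library left out it ran from -0.125 to -0.0377, from -0.0578 to 0.0297 and from -0.112 to -0.0795.

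By library totals, list medians from WT to vehicle were -0.0799 for azurophil, 0.219 for secondary and 0.232 for late granule genes, -0.154 for S phase, -0.181 for G2/M, -0.634 for ribosome biogenesis and 0.416 for interferon genes. With IACS-70654 they were 0.172, -0.117, -0.0216, -0.0469, 0.0939, 0.388 and 0.485 in the same order. Without the low-count filter the S phase median was 0.0362 from WT to vehicle and the secondary granule median -0.351 with IACS-70654. With each library left out, medians from WT to vehicle ran from 0.0413 to 0.208 for azurophil, 0.333 to 0.412 for secondary and 0.359 to 0.454 for late granule genes, 0.557 to 1.25 for stefins, 0.0218 to 0.0571 for S phase, -0.0444 to 0.0525 for G2/M, -0.566 to -0.297 for ribosome biogenesis and 0.263 to 0.649 for interferon genes. For IACS-70654 against vehicle the ranges were -0.0617 to 0.0157, -0.349 to -0.331, -0.247 to -0.154, 2.86 to 3.1, -0.325 to -0.235, -0.133 to -0.0766, 0.16 to 0.3 and 0.175 to 0.372. Single genes that changed sign among S phase members from WT to vehicle were Arg2 (-0.329), Bcl6 (-0.116), Ccr1 (-0.0915), Egr1 (-0.278), Meis1 (2.96), Padi4 (-0.155), Retnlg (-0.00288), Slfn1 (-0.0990) and Zfp36 (-0.121). With IACS-70654 they were Cdkn1a among S phase members (0.111), Hspe1 with libraries matched on the median depth of kept cells (-0.0160) and Flt3 without IACS-70654 replicate 1 (-0.0982, against 3.26 without replicate 2). Depth limits genes of few CPM, since the shallowest library summed 4465484 UMIs over its members.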
